A study of Mus musculus with 35 samples.

Results

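The genes described here are 10 Kruppel-like factors of the mouse, Klf2, Klf3, Klf4, Klf6, Klf7, Klf9, Klf10, Klf11, Klf12 and Klf13, taken by symbol from a table of gene counts. They are 10 of 17 Klf symbols and of 55011 symbols in that table, and all 10 were among the 15910 genes with enough counts to be tested. The RNA came from regulatory T cells (Tregs), sorted 2 times as CD4+ CD25+ cells, 1000 cells to a library. The cells were taken from visceral adipose tissue (VAT) and from spleen of wild-type male C57BL/6 retired breeders, older than 35 weeks, kept on a 12 h light and 12 h dark schedule. Cells were collected every 4 h, at ZT0, 4, 8, 12, 16 and 20 (Zeitgeber time, in hours from the start of light). This gave 17 VAT libraries, with 2 at ZT20 and 3 at each other time, and 18 spleen libraries, with 3 at each time. No treatment or mutation separated the groups. The labels do not say whether libraries of a group came from separate mice or pools, and p-values therefore rest on library-to-library spread, which may be technical.

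Kruppel-like factors are transcription factors whose zinc fingers bind GC-rich and CACCC-containing DNA. Some mainly activate (KLF2, KLF4, KLF6, KLF7), while others mainly repress, through the corepressor CtBP (KLF3, KLF12) or through SIN3A and histone deacetylases (KLF9, KLF10, KLF11, KLF13). In T cells KLF2 maintains quiescence and the expression of trafficking receptors such as S1PR1, KLF4 restrains proliferation, and KLF10 acts in TGF-beta signalling of mouse Tregs. KLF9 and KLF10 are outputs of the circadian clock in tissues such as skin and liver, and KLF9 is also induced by glucocorticoids.

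Assigned counts per library were 2178238 to 6260185 in VAT (median 4104617) and 2069319 to 5328695 in spleen (median 3181086.5). Libraries of the same group all differed by more than counting noise. The label was checked against markers: the Treg transcription factor Foxp3 averaged 711 CPM (counts per 1000000 counts of the scaled library) in VAT and 521 CPM in spleen, and the summed level of 6 Treg and T cell markers was 4850 to 6470 CPM in VAT and 2500 to 3170 CPM in spleen. Of these 6 markers, 5 averaged higher in VAT, with Ctla4 the most abundant (2240 CPM in VAT and 401 CPM in spleen). Cd3e went the other way (171 CPM in VAT and 327 CPM in spleen). B cell markers summed to 93.6 to 302 CPM in VAT and 1200 to 3080 CPM in spleen, with Ighm the highest. The 5 macrophage or monocyte markers summed to 6.59 to 18.5 CPM in VAT and 19.7 to 76.3 CPM in spleen. Of these 5, Csf1r averaged 0.789 CPM in VAT and 19 CPM in spleen. Only Cd68 averaged higher in VAT (7.49 CPM in VAT and 5.62 CPM in spleen). The 5 endothelial markers summed to 22.9 to 53.4 CPM in VAT and 159 to 341 CPM in spleen, mostly Pecam1 (33 CPM in VAT and 257 CPM in spleen), with Cdh5, Kdr and Tek under 1 CPM in both tissues. The 4 neutrophil markers summed to 150 to 853 CPM in VAT and 4.72 to 17.1 CPM in spleen, mostly Mmp9 (450 CPM in VAT and 10.1 CPM in spleen), with S100a8, S100a9 and Ly6g under 1 CPM in both. The 5 stromal markers summed to 80.2 to 129 CPM in VAT and 14.7 to 47.1 CPM in spleen, mostly Gsn (102 CPM in VAT and 28.1 CPM in spleen), with Pdgfra and Dcn under 1 CPM in both. The part of these lists in the results was not tested.

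The 250 bases before the RefSeq transcription start (GRCm38.p6) are shown for the members on which the results turn: Klf11, the one with a daily rhythm call in both tissues, Klf6, with the highest level per length in both tissues, Klf4, with the largest difference between tissues, and Klf3, the only member called lower in VAT. Each is written 5′ to 3′ on the gene's strand. Capitals mark matches, on either strand, to the E-box CACGTG, the D-box TTANGTAA, the core of REV-ERB and ROR elements AGGTCA, the core of the glucocorticoid response element AGAACA, the box with the letters CACCC or the GC box GGGCGG, and neighbouring matches can overlap.
Klf11 promoter, chr12:24651121-24651370, plus strand: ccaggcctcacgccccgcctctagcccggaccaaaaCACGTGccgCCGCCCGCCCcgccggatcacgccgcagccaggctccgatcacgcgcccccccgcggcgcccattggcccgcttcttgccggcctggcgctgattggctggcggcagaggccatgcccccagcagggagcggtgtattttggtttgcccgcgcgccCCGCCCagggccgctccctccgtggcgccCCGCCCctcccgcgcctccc
Klf6 promoter, chr13:5861239-5861488, plus strand: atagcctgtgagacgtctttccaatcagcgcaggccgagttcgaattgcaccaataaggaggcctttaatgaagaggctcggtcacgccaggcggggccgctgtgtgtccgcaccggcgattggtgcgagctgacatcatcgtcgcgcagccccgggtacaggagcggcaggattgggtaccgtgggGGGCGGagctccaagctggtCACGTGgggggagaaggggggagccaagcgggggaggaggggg
Klf4 promoter, chr4:55532476-55532725, minus strand: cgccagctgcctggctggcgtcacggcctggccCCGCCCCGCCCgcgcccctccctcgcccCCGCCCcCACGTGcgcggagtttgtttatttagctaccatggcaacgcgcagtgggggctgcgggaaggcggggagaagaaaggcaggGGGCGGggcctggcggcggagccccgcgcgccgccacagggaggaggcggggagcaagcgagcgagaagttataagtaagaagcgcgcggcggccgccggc
Klf3 promoter, chr5:64803271-64803520, plus strand: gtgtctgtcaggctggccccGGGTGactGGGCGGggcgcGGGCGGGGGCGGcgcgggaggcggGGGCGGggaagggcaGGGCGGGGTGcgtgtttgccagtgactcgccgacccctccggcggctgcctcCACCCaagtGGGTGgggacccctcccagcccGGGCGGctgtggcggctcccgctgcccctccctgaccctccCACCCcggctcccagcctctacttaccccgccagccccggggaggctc
An E-box stood in 3 of the 9 members with a promoter in the table, 214 bases before the start of Klf11, 43 before Klf6 and 182 before Klf4, and in 6.02% of the 32851 promoters of the same length. GC boxes stood in 7 of 9 members, against 32.7% of all promoters, and CACCC boxes in 6 of 9, against 52% of all. No member held the D-box (2.06% of all promoters), AGGTCA (14%) or AGAACA (16.1%) in this window. Klf3 held 6 GC boxes and 5 CACCC boxes, and Klf11 held 4 GC boxes and no CACCC box. Among the windows shown, those of Klf11, Klf6 and Klf3 reach past the gene starts of the GENCODE annotation (24651274, 5861482 and 64803388). Distances are therefore from the RefSeq start only. These matches describe the letters of the windows and say nothing of binding.

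The question of the tissue comparison was which members differ in level between Tregs of fat and of spleen. In VAT Tregs 8 of the 10 members were higher than in spleen Tregs and 1, Klf3, was lower, while Klf2 did not pass the test (edgeR's quasi-likelihood test with Benjamini-Hochberg adjustment over 15910 genes, adjusted p under 0.05). The count depended on the scaling: with libraries scaled by their totals, 6 members were higher and 3 lower. Under that scaling Klf12 was not called, and Klf13 and Klf2 were called as lower in VAT. Klf4 differed the most, being near zero in spleen, and Klf6, Klf11 and Klf10 were 7.75-fold, 5.9-fold and 5.54-fold higher in VAT. The background is wide: 62.2% of all genes tested were called between the tissues, 28.4% as higher in VAT and 33.8% as lower. The median log2 fold change of the 10 members was 1.47, and that of all genes tested −0.10. In these bulk libraries fewer cells of a type and less RNA per cell cannot be told apart.

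**Figure D1:**
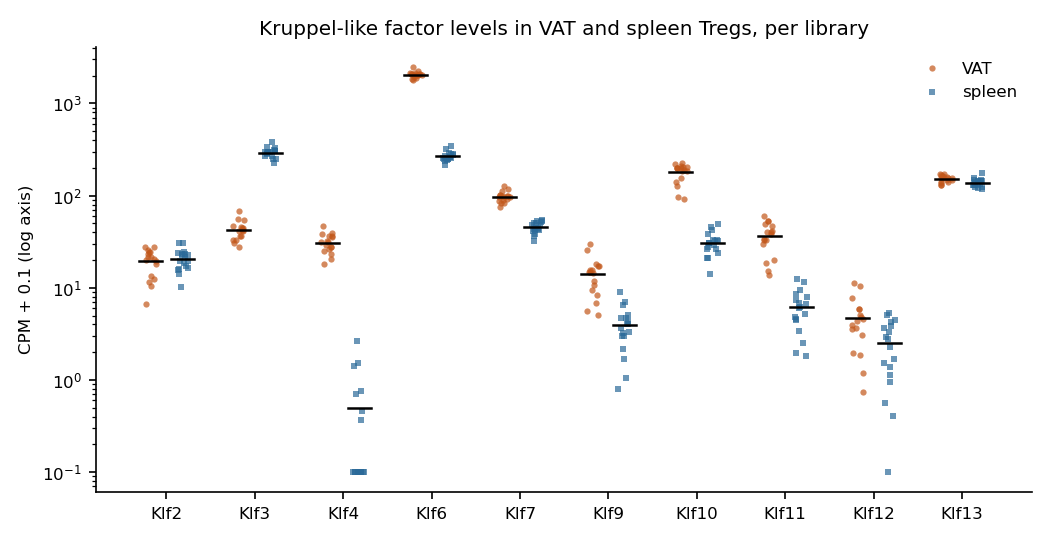
Level of each Kruppel-like factor in every library, as CPM plus 0.1 on a log axis, with VAT libraries as circles left of spleen libraries as squares and bars at the means. Klf3 lies lower in VAT (mean 42.4 CPM) than in spleen (293 CPM), and Klf4 and Klf6 lie higher in VAT. The 2 tissues overlap for Klf2, Klf9, Klf12 and Klf13.

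Klf4 (chromosome 4, 55527143 to 55532466, minus strand; all gene positions are on GRCm38) encodes an activator and repressor best known as a reprogramming factor. Its lowest, median and highest levels were 18.2, 31.6 and 46.7 CPM over the 17 VAT libraries and 0, 0 and 2.53 CPM over the 18 spleen libraries. Every VAT library was above every spleen library, and 11 of the 18 spleen libraries held no Klf4 count. The libraries held 1873 Klf4 counts in VAT and 27 in spleen, 11 of these 27 in spleen ZT0 library C. The fitted log2 fold change was 7.03 ± 0.32 (SE; adjusted p = 2.6e-19 by edgeR's quasi-likelihood test). It was 7.83 without spleen ZT0 library C and 6.47 without the ZT20 libraries, and its size is uncertain because it averages over ZT4 and ZT20, where the spleen groups held no count. At ZT4 Klf4 averaged 30.9 CPM in VAT, and no count was found in the spleen libraries, so that against a floor of 3 counts over the group (0.231 CPM) the level was at least 133-fold higher in VAT. At ZT20 it averaged 29.3 CPM in VAT against a floor of 0.216 CPM in spleen, again at least 133-fold higher.

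Klf6 (chromosome 13, 5861482 to 5870394, plus strand) encodes a broadly expressed activator that is induced early after cell stimulation. Its lowest, median and highest levels were 1800, 2060 and 2470 CPM in VAT and 214, 259 and 342 CPM in spleen. The groups did not overlap, and the spread within a tissue was small: the coefficient of variation (SD over mean) was 7.59% in VAT and 11.2% in spleen. The means were 2060 ± 156 CPM in VAT and 267 ± 29.7 CPM in spleen (SD, here and below over 17 VAT and 18 spleen libraries), a log2 fold change of 2.95 ± 0.05 (SE; adjusted p = 8.31e-35 by edgeR). Klf7, the closest relative of Klf6 (chromosome 1, 64029447 to 64122282, minus strand), averaged 97.4 ± 12.6 CPM in VAT and 45.3 ± 6.28 CPM in spleen (SD), a log2 fold change of 1.10 ± 0.07 (SE; adjusted p = 2.96e-16 by edgeR). The 2 tissues did not overlap for Klf7, at 75.8 to 127 CPM in VAT and 31.9 to 54.2 CPM in spleen. Of the Klf7 exon bases, 39.4% are shared with other annotated genes, so that reads of Klf7 and of these genes may not be told apart there. One of these, Gm13748, held 62 counts in all libraries against 9135 for Klf7. The other, Gm26649, was not among the symbols of the table of gene counts, so its counts are not known.

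Klf3 (chromosome 5, 64803388 to 64832901, plus strand), which encodes a repressor that recruits CtBP, was the member that fell in VAT. Its lowest, median and highest levels were 27.8, 41.8 and 67.8 CPM in VAT and 225, 297 and 378 CPM in spleen. The highest VAT library was far below the lowest spleen library. Klf3 averaged 42.4 ± 9.99 CPM in VAT and 293 ± 35.1 CPM in spleen (SD), a log2 fold change of −2.79 ± 0.09 (SE; adjusted p = 3.38e-26 by edgeR), and was 6.94-fold higher in spleen. The contribution of B cell RNA in spleen, given with the markers above, was not tested.

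Klf10 and Klf11 encode the TGF-beta-inducible early repressors, and Klf9 a related repressor that responds to glucocorticoids and thyroid hormone. Klf10 (chromosome 15, 38291463 to 38300706, minus strand) averaged 179 ± 41.6 CPM in VAT and 30.8 ± 8.91 CPM in spleen (SD), with 91.8 CPM in the lowest VAT library and 49.2 CPM in the highest spleen library. Its log2 fold change was 2.47 ± 0.10 (SE; adjusted p = 5.66e-23 by edgeR). Klf11 (chromosome 12, 24651274 to 24662789, plus strand) averaged 36.3 ± 13.7 CPM in VAT and 6.11 ± 3.04 CPM in spleen (SD), a log2 fold change of 2.56 ± 0.16 (SE; adjusted p = 6.53e-17 by edgeR). Klf11 did not overlap between tissues, although its lowest VAT library (13.6 CPM) was close to its highest spleen library (12.4 CPM). Klf9 (chromosome 19, 23141226 to 23168134, plus strand) averaged 14.1 ± 6.56 CPM in VAT and 3.86 ± 2.08 CPM in spleen (SD), a log2 fold change of 1.84 ± 0.22 (SE; adjusted p = 1.86e-09 by edgeR). Its tissues overlapped, with 4.98 CPM in the lowest VAT library and 8.91 CPM in the highest spleen library. In all 6 of 10 members did not overlap between the tissues (Klf3, Klf4, Klf6, Klf7, Klf10 and Klf11), against 10.4% of all genes tested.

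Klf2, Klf12 and Klf13 differed little or within their spread. Klf2 (chromosome 8, 72319033 to 72321656, plus strand), the T cell quiescence factor, ranged from 6.65 to 27.8 CPM in VAT and from 10.2 to 30.9 CPM in spleen. Its log2 fold change was −0.10 ± 0.14 (SE; adjusted p = 0.571 by edgeR), but −0.44 with an adjusted p of 0.00517 when libraries were scaled by their totals. Klf13 (chromosome 7, 63886351 to 63938915, minus strand), known in human T cells as an activator of the chemokine gene CCL5, averaged 153 ± 13.1 CPM in VAT and 139 ± 14.5 CPM in spleen (SD). Its log2 fold change of 0.14 ± 0.05 (SE; adjusted p = 0.0152 by edgeR) turned to −0.20 (adjusted p = 0.000541) with library totals, and the call was lost without the filter on low counts (0.18, adjusted p = 0.0534) and without the ZT20 libraries (0.11, adjusted p = 0.0822). Klf12 (chromosome 14, 99870632 to 100284679, minus strand), a CtBP-dependent repressor of few counts (283 in all VAT libraries and 174 in all spleen libraries), averaged 4.61 ± 2.92 CPM in VAT and 2.43 ± 1.66 CPM in spleen (SD). Its log2 fold change of 0.81 ± 0.35 (SE; adjusted p = 0.0442 by edgeR) lost the call with library totals (0.47, adjusted p = 0.234) and when any 1 of 18 libraries was left out, and was 0.52 (adjusted p = 0.305) without VAT ZT20 library C and 1.11 (adjusted p = 0.00725) without spleen ZT0 library B. The other libraries of these 18 were VAT ZT0 A and C, ZT4 B, ZT8 B and C, ZT12 B and ZT16 C, and spleen ZT0 A and C, ZT4 C and D, ZT8 B and C, ZT12 D, ZT16 A and C and ZT20 C. With library totals the median over all genes tested was −0.45, a log2 shift of −0.345, 2856 genes were called higher and 8514 lower in place of 4520 and 5376, and the members counted 6 higher and 3 lower.

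Per length of exon the members ranked differently in the 2 tissues. Per kilobase, Klf6 stood at 469 ± 35.6 CPM in VAT, ahead of Klf10 (42.8 ± 9.96), Klf13 (20.3 ± 1.74) and Klf7 (12 ± 1.55). Klf2, Klf4 and Klf11 followed within their spread of each other in VAT, at 10.4 ± 3.41, 10.1 ± 2.41 and 8.36 ± 3.16 CPM per kilobase. Their SD ranges also overlapped that of Klf7. Klf3 (3.77 ± 0.889), Klf9 (2.92 ± 1.36) and Klf12 (0.661 ± 0.418) were the lowest in VAT (SD, n = 17). In spleen the order was Klf6 (60.7 ± 6.77), Klf3 (26.1 ± 3.12), Klf13 (18.4 ± 1.92), Klf2 (11.1 ± 2.9), Klf10 (7.37 ± 2.13) and Klf7 (5.57 ± 0.772). Klf11 (1.41 ± 0.701), Klf9 (0.802 ± 0.431), Klf12 (0.348 ± 0.237) and Klf4 (0.131 ± 0.23) closed the order in spleen (SD, n = 18). Klf6 was thus first in both tissues. Klf3 followed it in spleen but overlapped with Klf9 near the low end in VAT. In spleen the SD ranges of neighbours overlapped for Klf2, Klf10 and Klf7 and again from Klf11 down to Klf4.

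The tissue difference was also tested at each time, on 2 or 3 VAT libraries and 3 spleen libraries, within the same fit. Klf3, Klf4, Klf6, Klf7, Klf10 and Klf11 were called at all 6 times and in 1 direction, Klf9 at 4 times, and Klf2, Klf12 and Klf13 at none. The members called numbered 7 of 10 at ZT0, ZT4, ZT12 and ZT16 and 6 of 10 at ZT8 and ZT20. Over all genes tested the calls were 30.3% at ZT0, 28.4% at ZT4, 28.3% at ZT8, 28.1% at ZT12, 30.7% at ZT16 and 23.9% at ZT20. Among the 6 members called at all times Klf6 varied the least, with log2 fold changes between 2.81 and 3.07, and Klf3 lay between −3.03 and −2.65. Klf9 missed the threshold at ZT8 (1.24 ± 0.49, SE; adjusted p = 0.0566 by edgeR) and at ZT20 (1.31 ± 0.57, SE; adjusted p = 0.0908 by edgeR).

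**Figure D2:**
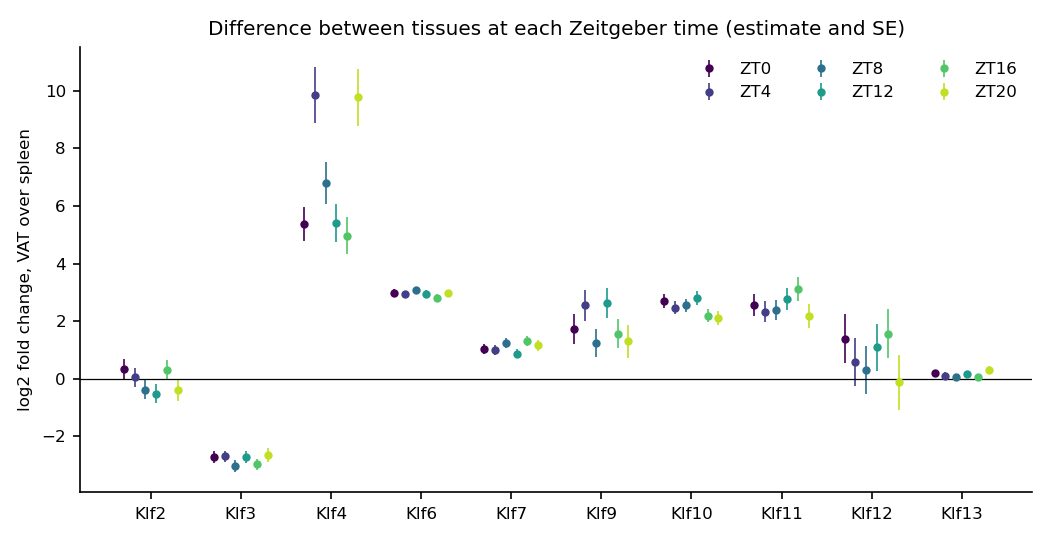
Fitted log2 fold change of VAT over spleen at each Zeitgeber time for each member, with SE bars. The points of Klf6 (2.81 to 3.07) and Klf3 (−3.03 to −2.65) stay close together, and those of Klf4 at ZT4 and ZT20 depend on the fitting procedure because no spleen count was found there.

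The daily course was tested by fitting a 24 h cosine and sine in each tissue. Klf11 was the member called as rhythmic, in VAT and in spleen, while the other 9 did not pass the test in either tissue. The background was low: 1.88% of all genes tested were called in VAT (299 genes), 1.99% in spleen (316) and 0.308% in both (49). Of these 49 genes, 4 peaked before ZT12 in both tissues, in the light phase, and 44 after. The 4 were Klf11, Tef (a clock-controlled transcription factor), Kdm3a (a histone demethylase) and Serinc3, the last 3 named after their values were seen. At an unadjusted p under 0.05, 3 members passed in VAT (Klf9, Klf10 and Klf11) and 1 in spleen (Klf11), beside 2789 and 2478 of all genes.

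In VAT, Klf11 measured 18.7, 40.6 and 33.7 CPM at ZT0, 41, 40 and 37.8 CPM at ZT4 and 59.5, 52.7 and 46.2 CPM at ZT8. It measured 48.9, 52.9 and 29.8 CPM at ZT12, 32.8, 33.1 and 15.3 CPM at ZT16 and 13.6 and 20 CPM at ZT20. The ZT8 libraries of VAT all lay above those of ZT0, ZT4, ZT16 and ZT20, and the ZT20 libraries lay near the bottom. In spleen, Klf11 measured 5.89, 4.77 and 5.05 CPM at ZT0, 8.39, 7.25 and 7.91 CPM at ZT4 and 11.5, 6.76 and 12.4 CPM at ZT8. It measured 9.34, 3.26 and 6.58 CPM at ZT12, 6.09, 1.85 and 1.72 CPM at ZT16 and 2.41, 4.53 and 4.32 CPM at ZT20. The highest mean was at ZT8 in both tissues, and the lowest was at ZT20 in VAT and at ZT16 in spleen. The peak-to-trough amplitude in log2 was 1.35 ± 0.29 in VAT (SE; 2.55-fold; adjusted p = 0.0258 by edgeR) and 1.60 ± 0.33 in spleen (SE; 3.02-fold; adjusted p = 0.0163 by edgeR). The fitted peak fell at ZT7.92 ± 0.758 h in VAT and ZT6.65 ± 0.797 h in spleen (SE). By amplitude Klf11 ranked 48 of the 299 genes called in VAT and 55 of the 316 called in spleen.

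The difference in Klf11 rhythm between tissues was tested directly and was not called (adjusted p = 0.845 by edgeR). The amplitude in VAT minus that in spleen was −0.24 ± 0.44 (SE; 95% interval −1.13 to 0.64), and the peak in VAT came 1.27 ± 1.1 h later (SE; 95% interval −0.946 to 3.5). No member's rhythm was called as different between tissues (adjusted p 0.827 to 0.978; none at an unadjusted p under 0.05, against 1447 of all genes), and 0.00629% of all genes tested were (1 gene).

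Leaving out single libraries ended both Klf11 calls. In VAT the call was lost without the ZT20 libraries (amplitude 1.12, adjusted p = 0.356) and without VAT library ZT8 B (1.32, adjusted p = 0.0742), ZT8 C (1.38, adjusted p = 0.0503), ZT20 A (1.19, adjusted p = 0.112) or ZT20 C (1.33, adjusted p = 0.0767). In spleen it was lost without library ZT8 D (1.47, adjusted p = 0.0599) or ZT16 B (1.46, adjusted p = 0.0514), and when any difference among the 6 times was tested in place of a cosine (largest minus smallest time 1.70, adjusted p = 0.0704). The libraries also differed in how their counts depended on gene length. The slope of log2 CPM on log2 exon length was taken after removing each gene's mean in its tissue, and compares libraries within a tissue only. The slope was −0.168 to −0.166 in the VAT ZT20 libraries and −0.0721 to 0.123 in the other VAT libraries. It was −0.107 to −0.0726 in the spleen ZT20 libraries and −0.132 to 0.088 in the other spleen libraries, which overlap them. With this slope as a covariate the Klf11 amplitude was 1.13 in VAT (adjusted p = 0.23) and 1.43 in spleen (adjusted p = 0.0556).

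**Figure D3:**
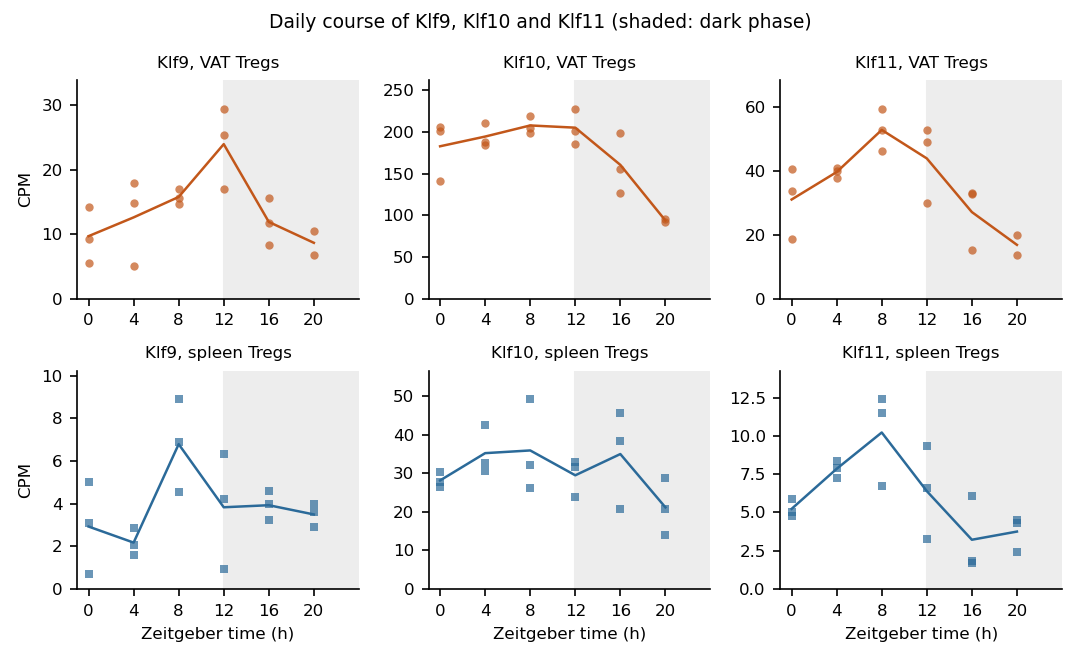
CPM of Klf9, Klf10 and Klf11 by Zeitgeber time, with VAT libraries in the upper row and spleen libraries in the lower row, points for libraries, lines through the means and the dark phase shaded. Klf11 has its highest mean at ZT8 in both tissues (52.8 CPM in VAT and 10.2 CPM in spleen), and Klf10 its lowest in VAT at ZT20 (93.6 CPM).

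Klf10 and Klf9 came next after Klf11 by p in VAT, without passing the test. Klf10 means over time were 183, 194, 208, 205, 161 and 93.6 CPM at ZT0 to ZT20 in VAT, and 28.1, 35.2, 35.9, 29.5, 35 and 21.1 CPM in spleen. Both VAT ZT20 libraries, at 91.8 and 95.4 CPM, lay below all other VAT libraries. The Klf10 amplitude was 0.76 ± 0.22 in VAT (SE; adjusted p = 0.128 by edgeR) with a peak at ZT7.65, and 0.49 ± 0.22 in spleen (SE; adjusted p = 0.469 by edgeR). Testing any difference among the 6 times gave Klf10 an adjusted p of 0.0313 in VAT, DESeq2 gave 0.0499 and the fit without the filter on low counts 0.019. Without the ZT20 libraries its amplitude in VAT was 0.40 (adjusted p = 0.752), and with the length slope as a covariate 0.71 (adjusted p = 0.42). Klf9 means were 9.69, 12.6, 15.8, 24, 11.9 and 8.66 CPM at ZT0 to ZT20 in VAT, and 2.93, 2.18, 6.8, 3.84, 3.93 and 3.5 CPM in spleen. The ZT12 libraries of VAT (17 to 29.5 CPM) included its highest value. The Klf9 amplitude was 1.27 ± 0.42 in VAT (SE; adjusted p = 0.165 by edgeR) with a peak at ZT10.4, and 0.90 ± 0.47 in spleen (SE; adjusted p = 0.528 by edgeR).

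The remaining members had smaller or less certain amplitudes. Klf6, the most abundant per length, had an amplitude of 0.03 ± 0.10 in VAT and 0.16 ± 0.10 in spleen (SE). Klf2 had 0.28 ± 0.29 in VAT and 0.68 ± 0.29 in spleen (SE; adjusted p = 0.834 in VAT and 0.381 in spleen by edgeR). Klf2 means were 17.2, 21.7, 15.1, 19.4, 25.4 and 15.4 CPM at ZT0 to ZT20 in VAT, and 13.4, 21.1, 19.5, 28.3, 20.5 and 20 CPM in spleen. Klf3, Klf7 and Klf13 had amplitudes of 0.12, 0.11 and 0.11 in VAT and 0.15, 0.20 and 0.24 in spleen. The wide errors of Klf12 (0.95 ± 0.67 in VAT and 0.89 ± 0.70 in spleen) and of Klf4 in spleen (0.86 ± 1.16) go with few counts.

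**Figure D4:**
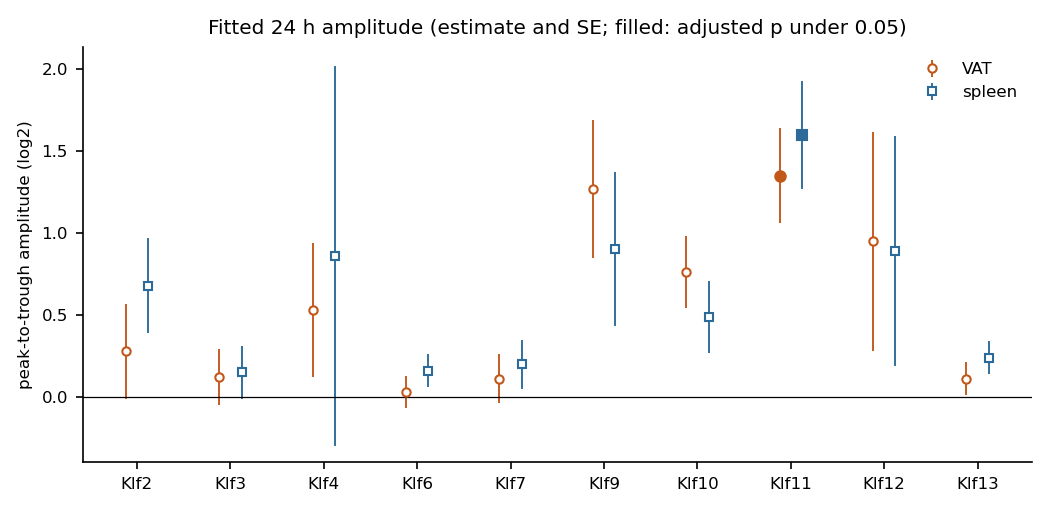
Fitted 24 h peak-to-trough amplitude in log2 for each member, VAT circles left of spleen squares, with SE bars and filled symbols for an adjusted p under 0.05. Only Klf11 is filled, at 1.35 in VAT and 1.60 in spleen.

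Among the other genes of the family, 8 of 14 KLF and SP genes were tested: 5 were higher in VAT, 1 was lower and 2 were not called (median log2 fold change 0.54). Klf8, a CtBP-dependent repressor, averaged 33.3 CPM in VAT and 2.58 CPM in spleen (log2 fold change 3.55 ± 0.25, SE), and Klf5 1.86 CPM in VAT and 0.157 CPM in spleen (3.80 ± 0.64, SE). Sp6 was higher in VAT by 1.07 ± 0.24 (SE), while the single lower gene, Sp1, a ubiquitous activator, was at −0.24 ± 0.08 (SE). None of the 8 was called as rhythmic.

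Trafficking genes linked to KLF2 moved in both directions, although Klf2 itself was not called. The homing receptor Ccr7 averaged 23.2 CPM in VAT and 625 CPM in spleen (log2 fold change −4.76 ± 0.24, SE; adjusted p = 3.82e-15 by edgeR). The egress receptor S1pr1, also lower in VAT, had 70.5 CPM in VAT and 265 CPM in spleen (−1.92 ± 0.08, SE) and was named after its value was seen. Cd69, which antagonises S1PR1, was higher in VAT by 3.72 ± 0.07 (SE). Of 8 regulators of KLF2, 3 were higher in VAT, 3 lower and 2 not called (median −0.07). Foxo1, an activator of Klf2 in T cells, averaged 60.4 CPM in VAT and 205 CPM in spleen (−1.76 ± 0.06, SE), Foxo3 was higher in VAT by 0.51 ± 0.11 (SE), a call lost with library totals (0.16), and the ubiquitin ligase gene Wwp1 was at −0.45 ± 0.11 (SE).

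Of 9 genes for corepressors and coactivators used by these factors, 4 were higher in VAT and 5 lower (median −0.18). Ctbp2 was higher in VAT by 2.61 ± 0.23 (SE), with a mean of 7.91 CPM in VAT Tregs and 1.36 CPM in spleen Tregs, while the acetyltransferase gene Kat2b (−0.63 ± 0.09, SE) and Sin3a (−0.45 ± 0.10, SE) were lower. Of 9 TGF-beta pathway genes, 5 were higher in VAT, 1 was lower and 3 were not called (median 0.23). The ligand gene Tgfb1 averaged 40.1 CPM in VAT and 9.93 CPM in spleen (1.99 ± 0.12, SE), the signal transducer Smad3 was higher in VAT by 0.73 ± 0.08 (SE), and the repressor gene Skil by 0.70 ± 0.10 (SE). With library totals, the counts became 1 higher and 5 lower for the corepressors and coactivators, 3 higher and 4 lower for the TGF-beta pathway, 0 higher and 4 lower for the regulators of KLF2 and 3 higher and 3 lower for the other family genes. The glucocorticoid-responsive genes under that scaling counted 5 higher and 2 lower.

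Clock genes were set beside Klf9, Klf10 and Klf11. Of 11, 6 were higher in VAT, 2 lower and 3 not called (median 0.85), with the same counts under library totals. Per1 averaged 182 CPM in VAT and 27.4 CPM in spleen (log2 fold change 2.73 ± 0.07, SE), Nr1d1 25.1 CPM in VAT and 3.92 CPM in spleen (2.65 ± 0.18, SE), and Per2 2.72 CPM in VAT and 8.69 CPM in spleen (−2.04 ± 0.24, SE). Arntl, Per2, Nr1d2 and Tef were called as rhythmic in VAT and Tef in spleen. Tef peaked at ZT10.3 in VAT and ZT6.54 in spleen, and Arntl at ZT0.244 in VAT. Of 7 glucocorticoid-responsive genes, 5 were higher in VAT, 1 lower and 1 not called (median 1.75), with 2 called as rhythmic in VAT and 2 in spleen. The rhythmic glucocorticoid-responsive genes were Tsc22d3 and Fkbp5 in VAT and Tsc22d3 and Dusp1 in spleen. Dusp1 was higher in VAT by 6.36 ± 0.08 (SE) and Sgk1 by 2.91 ± 0.13 (SE). Per1 stands in the clock list as well, and Dusp1 also in the list of immediate early genes below.

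Immediate early genes, which respond to stimulation of the cell, were set beside Klf2, Klf4, Klf6 and Klf10. These immediate early genes were all higher in VAT, 13 of 13, with a median log2 fold change of 5.73. Their summed level was 37700 to 54600 CPM in VAT and 832 to 1450 CPM in spleen. Atf3 (10.89 ± 0.30, SE), Fos (8.97 ± 0.25, SE) and Fosb (8.89 ± 0.23, SE) were the largest. Cells of VAT and spleen were isolated from different organs, so tissue and cell isolation cannot be told apart, and the part of this list in the values of the members was not tested. None was called as rhythmic in VAT, and Junb and Dusp1 were in spleen.

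The 2 genes whose level across the 35 libraries was most like that of each member were taken from 9322 or 9323 genes, by Pearson correlation of log2 CPM after removing the tissue means. The libraries share depth and composition, and the values describe them only. Klf11 was most like Cbx7 (r = 0.79) and Relch (0.77), and Klf10 most like Pdcl (0.75) and Snx14 (0.74). For the other members the highest r was 0.70 for Klf13 (Gm10130), 0.60 for Klf6 (Ifngr2), 0.59 for Klf7 (Tmem63b), 0.58 for Klf2 (Ei24), 0.58 for Klf3 (Mdc1), 0.56 for Klf9 (Bcas3os1), 0.56 for Klf12 (Gxylt1) and 0.53 for Klf4 (Ptar1).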

How the data were processed

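Poly(A) RNA of 1000 sorted cells per library was captured with oligo-dT, amplified, fragmented with Nextera XT and sequenced as 2 × 25 nt reads on a NextSeq500, per the labels' protocols. Reads were aligned with STAR 2.7.3a to mm10 and counted with featureCounts, per the submitters' processing notes. Settings for strand and multi-mapping reads were not found in these sources. The deposited file holds raw counts per gene symbol, not normalized. Counts were tested with edgeR 4.0.16 (R 4.3.3) after filterByExpr over the 12 groups and TMM scaling, all 35 libraries sharing 1 estimate of the spread. The tissue contrast weights the 6 times equally, and the daily model has a 24 h cosine and sine in each tissue. P-values were adjusted by Benjamini-Hochberg over all genes, with a threshold of 0.05, and the model was tested on simulated data. Alternatives were library totals, RLE factors, no filter, DESeq2 1.42.0, a replicate block, the length slope, no ZT20, each tissue alone and each library left out. Exon lengths and positions come from GENCODE M21 for 52897 symbols.

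All members are described. Values in every library were given for Klf11, which had the rhythm calls. For the 3 largest tissue differences the lowest, median and highest value in each tissue were given. Means at each time were given for Klf2, Klf9 and Klf10 after their values were seen. From each list the 3 called genes of largest absolute log2 fold change are named. One result among the genes linked to KLF2, and the counts of that list, are not reported here. The members and lists were chosen with earlier results of these data known. Replicate letters (A to D) in the labels are shared by VAT and spleen at a time, but libraries of the same letter did not deviate together, so no pairing was used.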

Additional observations from a re-analysis of the deposited data

How the results depend on the processing

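Of 10 members, 8 or 9 were called between tissues under every alternative, and 9 in the reported fit, but not always the same ones. With library totals Klf13 turned to −0.20, Klf2 was called as lower in VAT (−0.44, adjusted p = 0.00517 by edgeR) and Klf12 was not called (0.47, adjusted p = 0.234 by edgeR). On leaving out 1 library Klf2 lay between −0.29 and 0.02 and was not called. Members called as rhythmic in VAT numbered 2 without the filter, with DESeq2 and when any difference among times was tested (Klf10 and Klf11), 0 without ZT20 and 0 with the length slope, and 0 to 1 on leaving out 1 library. In spleen they numbered 0 with the length slope, 0 when any difference among times was tested and 0 to 2 on leaving out 1 library. Without spleen ZT0 library C, which held 11 of the 27 spleen counts of Klf4, the Klf4 amplitude in spleen was 5.41 (adjusted p = 0.0163). The cause of these changes was not tested. Calls of the tissue difference at single times numbered 40 of 60 and 34 to 41 under other settings (39 to 42 on leaving out 1 library), and no member differed in rhythm under any. Same-letter VAT and spleen libraries at a time correlated at −0.112 to 0.057 (17 pairs, none over 0.1), and with the letter as a replicate block the Klf11 amplitude was 1.40 in VAT (adjusted p = 0.0485) and 1.70 in spleen (0.0297), while a replicate block by time and letter took away the Klf12 tissue call (0.93, adjusted p = 0.0973). Klf12 and Klf4 in spleen are limited by their counts.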
